A study of Neotoma stephensi and Rattus norvegicus with 6 samples.

Results

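The extracellular matrix genes of the rodent foregut and the genes of the integrins that bind this matrix were compared between Stephens' woodrat (Neotoma stephensi) and the lab rat (Rattus norvegicus, strain Sprague Dawley). The members were chosen by gene symbol from the deposited count files. They are every collagen chain, every laminin chain, every symbol that begins with Itgb and a digit, and 21 further named matrix and integrin genes. This gave 82 of the 15481 mouse genes in the files, made up of 39 collagen chains, 11 laminin chains, 13 integrin chains, 16 other matrix genes and 3 integrin-binding proteins (Itgb1bp1, Itgb1bp2 and Itgb3bp) that share the Itgb symbol without being integrin chains. Each species was represented by 3 females, and a piece of the fornix ventricularis of the stomach was taken from each. This forestomach region lacks glands and carries a keratinized squamous epithelium. The woodrats were caught in the wild and ate juniper foliage, while the lab rats were bought from a breeder and ate rat chow, so species, diet and origin cannot be told apart. The labels call all 6 animals virgin, whereas the methods state that this was unknown for the woodrats.

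Collagens, laminins and the glycoproteins around them are secreted proteins that assemble outside the cell. Fibrillar collagens form the tensile fibres of the interstitium, and type IV collagen, laminins, nidogens and perlecan form the basement membrane, the thin sheet under an epithelium and around each smooth muscle cell and vessel. Integrins are receptors of an alpha and a beta chain that tie this matrix to the cytoskeleton, and in squamous epithelium a dedicated integrin, laminin and pair of collagens anchor the basal cells through hemidesmosomes and anchoring fibrils.

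Reads of both species were aligned by the authors to mouse coding transcripts, and each file lists, for every mouse gene, the reads assigned to it alone. The animals had between 5439642 and 7932637 counted reads. Values below are in CPM, the reads of a gene relative to all counted reads of its library, after TMM normalization, a scaling that corrects for differences in library composition. A log2 fold change is positive where woodrats were higher. The values of animals 1, 2 and 3 of a species are always given in that order. A count of 3 reads corresponded to between 0.355 and 0.586 CPM. Lab rat 3 had the lowest TMM factor (0.836, against 0.896 to 1.11 for the others), and among the woodrats, woodrat 1 had the most smooth muscle and the least basal epithelial marker reads. CPM values depend on transcript length, so levels are compared between animals and not between genes. The marker genes of glandular stomach summed to between 7.63 and 11.5 CPM in woodrats and between 6.74 and 9.76 CPM in lab rats, and 6 of the 7 in the files had no lab rat read. Among these, Muc5ac, the mucin of the glandular surface, had 17, 12 and 33 reads in the woodrats and 0, 0 and 0 reads in the lab rats.

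Of the 82 members, 76 had at least 1 CPM in at least 3 animals and were tested. At an FDR below 0.01 in edgeR's quasi-likelihood test, 20 members were higher and 10 lower in woodrats. This was 39.5% of the tested members, against a background of 20.0% over all 12603 tested genes, of which 10.3% were higher and 9.71% lower. The median log2 fold change of the tested members was 0.47 and that of all tested genes 0.03. The species did not overlap in 44 of the tested members, against a background of 56.2% of all tested genes. In 29 of these members the woodrats lay above (background 28.8%) and in 15 the lab rats (background 27.4%). The 20 higher members included 3 type IV collagen chains, 3 laminin chains, nidogen 1, perlecan, fibronectin, tenascin C, periostin and 4 integrin chains. The 10 lower members included decorin, nidogen 2, a pair of leukocyte integrin chains and 5 less common collagens. Of the tested members, 5 reached 1 CPM in animals of 1 species only, so that they entered the test through the species in which they are high. These were Itgb2, Col20a1 and Col11a2 in lab rats and Col19a1 and Col4a3 in woodrats, and 4 of the 5 were among the 30. With the filter at 5 CPM, 24 members and 1966 of all genes were called, against 30 members and 2516 genes in the main test.

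**Figure D1:**
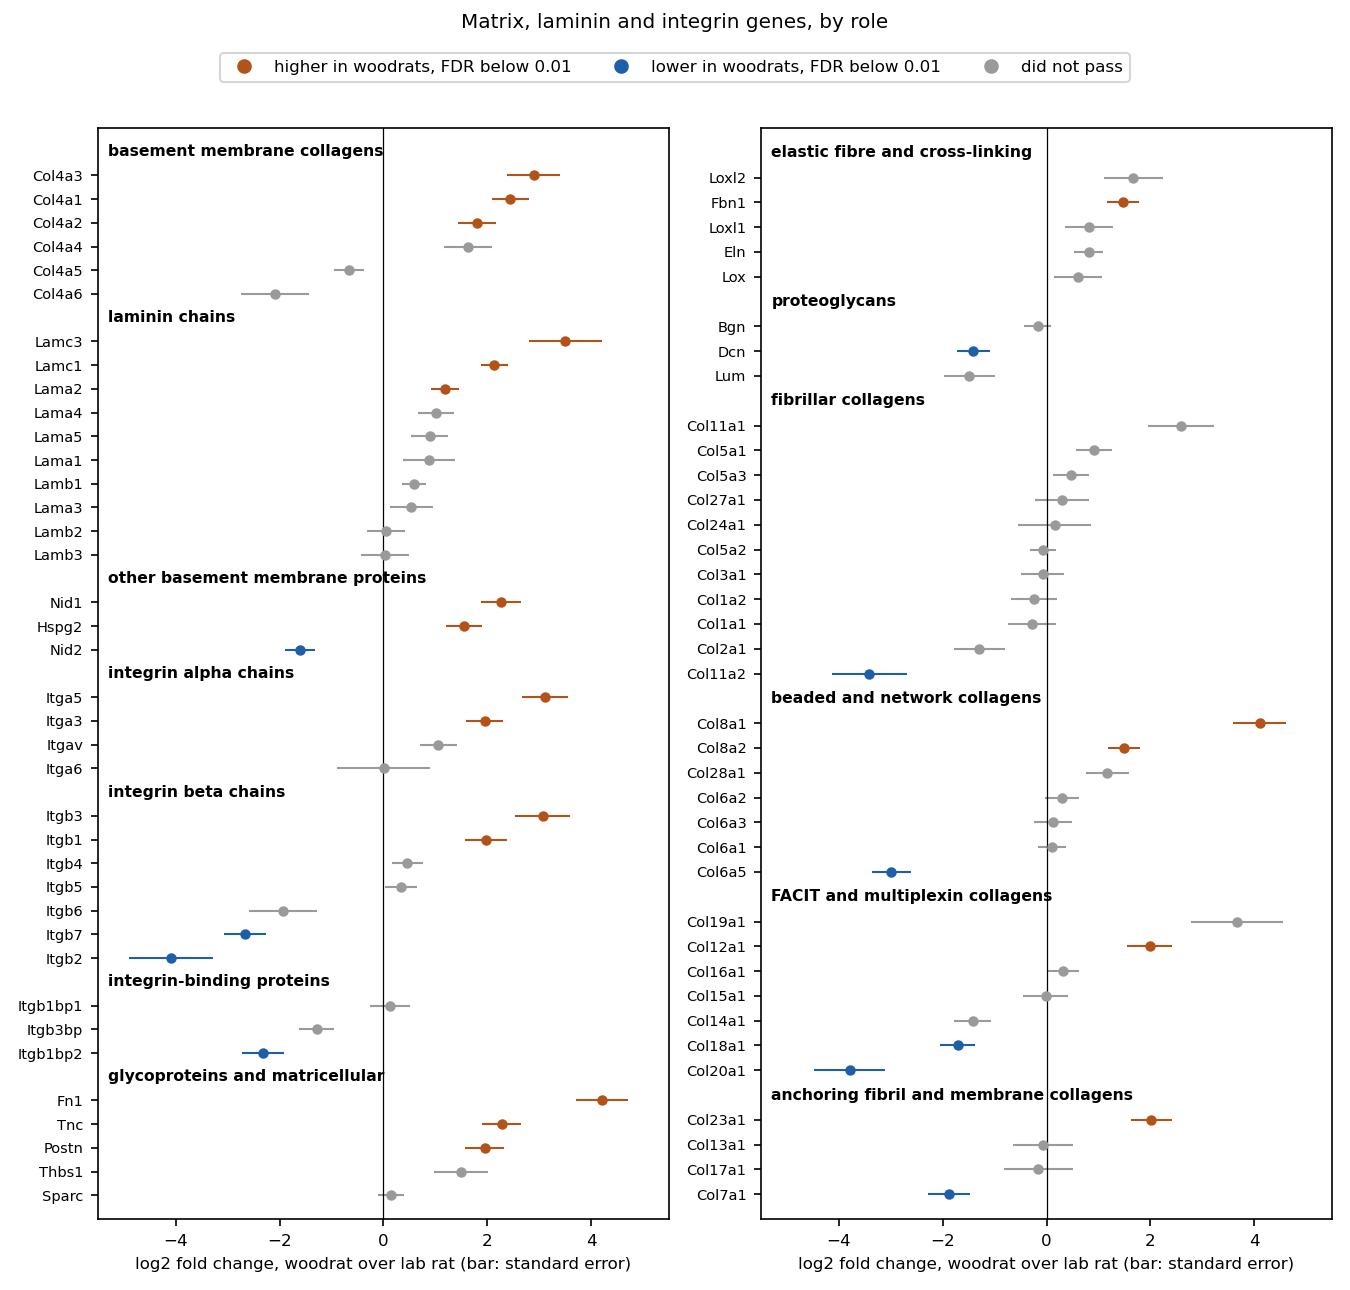
The log2 fold change of woodrat over lab rat (points, with standard errors as bars) is plotted for 75 of the 76 tested members, grouped by role, with the 20 members higher and the 10 members lower in woodrats at an FDR below 0.01 in colour. The 10 laminin chains shown lie at or to the right of 0, while the fibrillar collagens lie on both sides of it.

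The number of calls depended on the animals. Without woodrat 1, 2 or 3 the test called 20, 7 and 34 members, and without lab rat 1, 2 or 3 it called 7, 9 and 6. The calls over all genes also changed in these fits, over the range given in the closing section on processing. Each fit had fewer residual degrees of freedom than the main test, so these counts do not describe the members alone. Fn1, Lamc1, Col8a1 and Col6a5 were called in each of these 6 fits, Itga5 and Itgb7 in 5, and Dcn in none. In no fit or alternative did a called member change its direction.

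The main chains of type IV collagen, the network collagen of all basement membranes, were higher in woodrats. Col4a1 (ENSMUSG00000031502.9) had 1061, 481 and 596 CPM in the woodrats and 123, 145 and 125 CPM in the lab rats. Col4a2 (ENSMUSG00000031503.12), its partner in the same trimer, had 570.1, 254 and 287 CPM in the woodrats and 95.8, 132 and 90.5 CPM in the lab rats. The lowest woodrat stood above the highest lab rat in both genes, and woodrat 1 was the highest (log2 fold change 2.44, SE 0.36, FDR = 0.00180 for Col4a1, and log2 fold change 1.80, SE 0.37, FDR = 0.00631 for Col4a2). Col4a1 was 5.44-fold and Col4a2 3.49-fold higher. The chains that form the second type of network, found in specialised basement membranes, were low in both species. Col4a3 had 23, 23 and 26 reads in the woodrats and 4, 4 and 1 reads in the lab rats, and passed the threshold (log2 fold change 2.90, SE 0.51, FDR = 0.00366). It reached 1 CPM in woodrats only, so it was tested through its level there. Col4a4 had a log2 fold change of 1.63 (FDR = 0.0246), and all its woodrats lay above the lab rats too. The remaining chains had negative values. Col4a5 had 59.8, 36.1 and 32.6 CPM in the woodrats and 73.2, 74.6 and 54.9 CPM in the lab rats, with overlap between the species (log2 fold change -0.66, SE 0.29, FDR = 0.103). Col4a6, which pairs with Col4a5 in the basement membranes of epithelium and smooth muscle, had 14.8, 3.19 and 2.37 CPM in the woodrats and 28.8, 35.2 and 20.2 CPM in the lab rats, every lab rat above every woodrat, but did not pass (log2 fold change -2.08, SE 0.65, FDR = 0.0327). Among the woodrats, the highest Col4a6 level was again that of woodrat 1. Leaving out single animals gave log2 fold changes of 2.04 to 2.62 for Col4a1, called in 4 of the 6 fits, and of 1.35 to 1.99 for Col4a2, called in 2 of the 6 fits.

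Smooth muscle cells lay down type IV collagen around themselves, and the log2 fold changes of their 11 marker genes were all positive. The markers summed to 159684, 77335 and 52758 CPM in the woodrats and 16378, 26741 and 31308 CPM in the lab rats, so the sums of the species did not overlap. Taken singly, 9 of the 11 had every woodrat above every lab rat, against 28.8% of all tested genes, and Smtn and Tpm2 overlapped. Woodrat 1 was highest for each of the 11. Of these markers 2 passed the threshold (Mylk and Smtnl1), a share of 18.2% against the background of 20.0%. Smtnl1 had 2771, 2226 and 1707 reads in the woodrats and 0, 0 and 1 reads in the lab rats, so it entered the test through woodrats only. The study also listed it first among its genes higher in woodrats, from these same libraries. Its share in the counts of markers above is therefore not independent of the data. Endothelial markers were lower in woodrats in sum, from 72.1 to 127 CPM in woodrats and from 155 to 161 CPM in lab rats, with 1 of 7 lower in woodrats at the threshold (Tie1) and 6 not passing. That share was 14.3%, against the background of 20.0%. In bulk tissue, fewer cells of a type and less RNA per cell cannot be told apart. The part of these cell types in the values of the matrix genes was not tested beyond the ratios given below.

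The laminins, the cross-shaped trimers of an alpha, a beta and a gamma chain to which cells attach, were represented by 11 chains, all tested. Of these 3 were higher in woodrats and none was lower, a share of 27.3% against the background of 20.0% in either direction, and all 11 had a log2 fold change above 0, although that of Lamb3, at 0.04, fell below 0 under 2 of the 3 other scalings. Lamc1 (ENSMUSG00000026478.13), the gamma chain of most laminins, had 235, 200.4 and 180.0 CPM in the woodrats and 48.2, 53.8 and 37.4 CPM in the lab rats. The woodrats were close together and all above the lab rats (log2 fold change 2.14, SE 0.25, FDR = 0.000874). Lama2, the alpha chain of muscle basement membranes, had 23.2, 34.8 and 33.2 CPM in the woodrats and 13.3, 12.6 and 14.4 CPM in the lab rats (log2 fold change 1.18, SE 0.27, FDR = 0.00985). Lamc3, a less common gamma chain, had 13, 68 and 76 reads in the woodrats and 8, 1 and 3 reads in the lab rats (log2 fold change 3.51, SE 0.70, FDR = 0.00567). Lamc1 was called in every fit that left out 1 animal, Lamc3 in 2 of the 6 fits and Lama2 in 1 of the 6 fits.

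The other laminin alpha and beta chains differed less. Lama5, the alpha chain of most epithelial and vascular basement membranes, had 191, 118 and 85.0 CPM in the woodrats and 58.5, 59.2 and 94.96 CPM in the lab rats, and woodrat 3 lay below lab rat 3 (log2 fold change 0.89, SE 0.35, FDR = 0.0734). Lama4, found around vessels and muscle, and Lama1, an embryonic chain, had log2 fold changes of 1.01 and 0.88 (FDR = 0.0480 and 0.193). The beta chains Lamb1 and Lamb2 had 0.59 and 0.05 (FDR = 0.0779 and 0.930). None of these 5 chains passed the threshold.

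The proteins that link laminin to type IV collagen split between the species. Nid1 (ENSMUSG00000005397.7), which encodes nidogen 1, had 157, 171 and 137 CPM in the woodrats and 40.3, 41.5 and 14.4 CPM in the lab rats (log2 fold change 2.27, SE 0.39, FDR = 0.00334). Nid2 (ENSMUSG00000021806.3), which encodes the related nidogen 2, had 5.08, 6.52 and 4.97 CPM in the woodrats and 17.2, 14.4 and 19.1 CPM in the lab rats (log2 fold change -1.61, SE 0.29, FDR = 0.00409). Nid1 was therefore 4.82-fold higher and Nid2 3.05-fold lower in woodrats, and in neither gene did the species overlap, although lab rat 3 stood well below the other lab rats for Nid1. Hspg2, which encodes perlecan, the heparan sulphate proteoglycan of basement membranes, had 385, 227 and 166 CPM in the woodrats and 73.8, 102 and 88.2 CPM in the lab rats (log2 fold change 1.56, SE 0.34, FDR = 0.00877). All 3 genes of this role passed the threshold, against 20.0% of all tested genes. Without single animals, Nid1 was called in 3 of the 6 fits, and Nid2 and Hspg2 in 1 each.

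**Figure D2:**
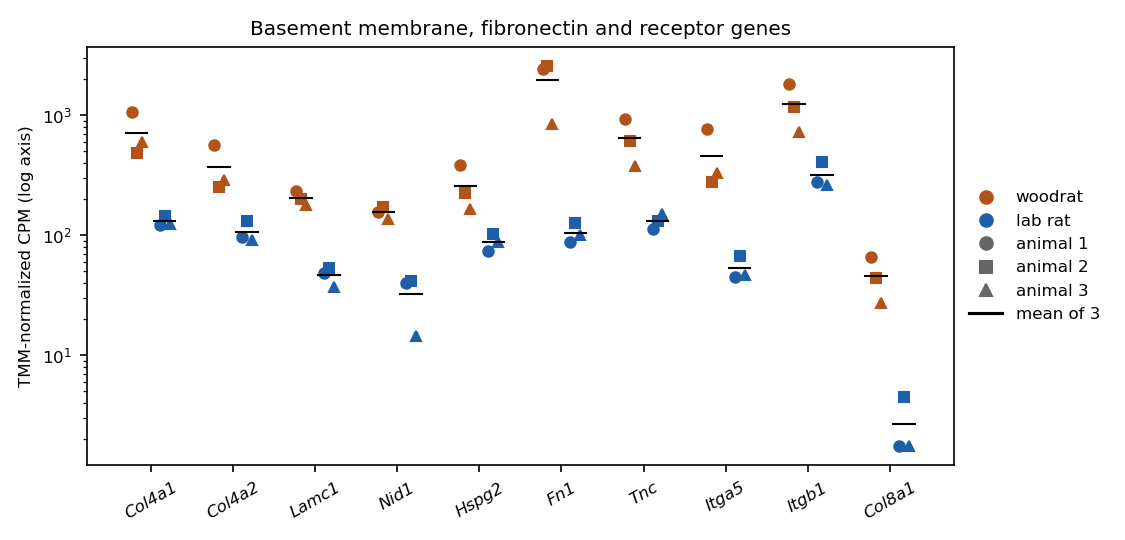
TMM-normalized CPM on a log axis for each woodrat and lab rat (symbols mark the animals, bars the mean of 3) are shown for 10 genes of the basement membrane, fibronectin matrix and integrins that were higher in woodrats. In each gene the lowest woodrat lies above the highest lab rat, and woodrat 3 is the lowest woodrat in 7 of the 10.

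Fibronectin had the largest log2 fold change of the 76 tested members. Fn1 (ENSMUSG00000026193.14) encodes the glycoprotein that links collagen and fibrin to cells and is the main ligand of the integrin formed by the Itga5 and Itgb1 chains. It had 2449, 2577 and 843 CPM in the woodrats and 88.4, 126 and 100.5 CPM in the lab rats. Woodrat 3 had much less than the other woodrats and was still far above the highest lab rat. The difference was 18.6-fold (log2 fold change 4.22, SE 0.50, FDR = 0.000885). Fn1 was called in each fit that left out 1 animal, with log2 fold changes of 3.94 to 4.58.

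Of the matricellular proteins, which modulate cell adhesion rather than bear load, Tnc and Postn were higher in woodrats. Tnc, which encodes tenascin C, had 935, 616 and 376 CPM in the woodrats and 112, 132 and 151 CPM in the lab rats (log2 fold change 2.28, SE 0.37, FDR = 0.00273). Postn, which encodes periostin, a protein of fibroblasts and muscle that binds collagen and tenascin, had 53.9, 113 and 42.8 CPM in the woodrats and 19.0, 17.2 and 18.1 CPM in the lab rats (log2 fold change 1.95, SE 0.38, FDR = 0.00506). Woodrat 2 was the highest for Postn, whereas woodrat 1 was the highest for Tnc. Thbs1, which encodes thrombospondin 1, had 115, 77.4 and 31.3 CPM in the woodrats and 33.5, 33.1 and 12.5 CPM in the lab rats, and its species overlapped (log2 fold change 1.49, SE 0.52, FDR = 0.0481). Sparc, which encodes a collagen-binding protein made by most stromal cells, had 308, 251 and 325 CPM in the woodrats and 267, 313 and 219 CPM in the lab rats, with no separation of the species (log2 fold change 0.15, SE 0.26, FDR = 0.680). Tnc and Postn were each called in 2 of the 6 fits without single animals.

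Of the integrin chains, Itga5, Itgb1, Itga3 and Itgb3 were higher in woodrats. Itga5 (ENSMUSG00000000555.6), the alpha chain of the fibronectin receptor, had 771, 278 and 327 CPM in the woodrats and 44.6, 67.7 and 46.6 CPM in the lab rats (log2 fold change 3.11, SE 0.45, FDR = 0.00168). Itgb1 (ENSMUSG00000025809.14), the beta chain shared by most matrix receptors, had 1814, 1169 and 731 CPM in the woodrats and 277, 406 and 263 CPM in the lab rats (log2 fold change 1.97, SE 0.40, FDR = 0.00633). Every woodrat exceeded every lab rat in both, and woodrat 1 was the highest. Itga3, which pairs with Itgb1 as a laminin receptor, had 92.8, 53.0 and 54.1 CPM in the woodrats and 19.2, 21.5 and 10.6 CPM in the lab rats (log2 fold change 1.95, SE 0.35, FDR = 0.00398). Itgb3, a chain of vitronectin and fibrinogen receptors, had 21.3, 10.7 and 10.5 CPM in the woodrats and 1.99, 2.32 and 0.578 CPM in the lab rats (log2 fold change 3.07, SE 0.53, FDR = 0.00323). Its usual partner Itgav had 26.2, 25.4 and 27.4 CPM in the woodrats and 14.4, 16.7 and 6.55 CPM in the lab rats, again without overlap but short of the threshold (log2 fold change 1.06, SE 0.36, FDR = 0.0434). Itgb5, another partner of Itgav, had a log2 fold change of 0.34 (FDR = 0.410). Without single animals Itga5 was called in 5 of the 6 fits, Itgb3 in 3, Itga3 in 2 and Itgb1 in 1.

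The integrin beta chains of leukocytes, Itgb2 and Itgb7, were lower in woodrats. Itgb2, the common chain of the leukocyte adhesion receptors, had 0, 0 and 5 reads in the woodrats and 38, 27 and 18 reads in the lab rats, the woodrat reads all from woodrat 3 (log2 fold change -4.09, SE 0.81, FDR = 0.00573). It reached 1 CPM in lab rats only, and its log2 fold change was -7.75 without woodrat 3 and -3.11 with a prior count of 2. Itgb7, a chain of intestinal homing receptors on lymphocytes, had 2.54, 1.25 and 2.01 CPM in the woodrats and 12.5, 8.93 and 15.2 CPM in the lab rats (log2 fold change -2.67, SE 0.40, FDR = 0.00202). Itgb7 was called in 5 of the 6 fits without single animals, and Itgb2 in 1. Itgb6, an epithelial chain that pairs with Itgav, had 1, 7 and 24 reads in the woodrats and 52, 31 and 25 reads in the lab rats and did not pass (log2 fold change -1.94, SE 0.66, FDR = 0.0441). The leukocyte markers in the files summed from 6.64 to 20.5 CPM in woodrats and from 33.1 to 68.8 CPM in lab rats, with 3 of the 4 tested lower in woodrats (Ptprc, Csf1r and Itgam) and none at 0 in all animals of a species. This was 75.0% of the tested leukocyte markers, against 20.0% of all tested genes. The part of leukocyte number in the levels of Itgb2 and Itgb7 was not tested. The 3 integrin-binding proteins are cytoplasmic or nuclear. Itgb1bp2, which encodes the muscle chaperone melusin, had 3.12, 1.67 and 2.37 CPM in the woodrats and 8.56, 11.4 and 15.6 CPM in the lab rats (log2 fold change -2.32, SE 0.40, FDR = 0.00322), called in 3 of the 6 fits without single animals. Itgb3bp had a log2 fold change of -1.28 (FDR = 0.0170) and Itgb1bp1 of 0.13 (FDR = 0.815).

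The chains of the main interstitial fibres, Col1a1, Col1a2 and Col3a1, overlapped between the species. Col1a1 and Col1a2 together form type I collagen, the chief fibre of the stroma. Col1a1 (ENSMUSG00000001506.10) had 498, 149.8 and 204 CPM in the woodrats and 318, 255 and 455 CPM in the lab rats (log2 fold change -0.27, SE 0.46, FDR = 0.667). Col1a2 had 524, 146 and 264 CPM in the woodrats and 352, 314 and 437 CPM in the lab rats (log2 fold change -0.24, SE 0.44, FDR = 0.688). Col3a1, the fibre collagen of distensible walls, had 1333, 449 and 717 CPM in the woodrats and 876, 776 and 977 CPM in the lab rats (log2 fold change -0.07, SE 0.41, FDR = 0.901). For each of these 3 genes woodrat 1 was the highest and woodrat 2 the lowest of all 6 animals, so the woodrats spanned the range of the lab rats. With each animal left out in turn, the log2 fold change of Col1a1 ran from -0.95 to -0.00416, of Col1a2 from -0.85 to 0.06 and of Col3a1 from -0.59 to 0.19.

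Of the 11 fibrillar collagen chains 1 passed the threshold, or 9.09%, against the background of 20.0%. The regulatory chains of thin fibrils, Col5a1, Col5a2 and Col5a3, had log2 fold changes of 0.92, -0.06 and 0.47 (FDR = 0.0654, 0.858 and 0.317). Col24a1 and Col27a1 had 0.16 and 0.30 (FDR = 0.878 and 0.669). The chains best known from cartilage had log2 fold changes of either sign, and Col11a1 and Col11a2 were low. Col11a2 had 3, 1 and 4 reads in the woodrats and 33, 10 and 38 reads in the lab rats and was the chain that passed, tested only through its level in lab rats (log2 fold change -3.41, SE 0.72, FDR = 0.00722), called in 1 of the 6 fits without single animals. Col11a1, its partner in cartilage, had 32, 34 and 21 reads in the woodrats and 5, 8 and 1 reads in the lab rats, higher in each woodrat but short of the threshold (log2 fold change 2.59, SE 0.63, FDR = 0.0131). Col2a1 had 18.9, 5.55 and 7.94 CPM in the woodrats and 21.5, 18.4 and 38.9 CPM in the lab rats, with overlap (log2 fold change -1.29, FDR = 0.0682).

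The beaded filaments of type VI collagen, which surround cells in most connective tissue, also did not separate the species in their main chains. Col6a1 had 411, 306 and 265 CPM in the woodrats and 305, 301 and 305 CPM in the lab rats, and the lab rats were within a few CPM of each other (log2 fold change 0.11, SE 0.26, FDR = 0.772). Col6a2 and Col6a3 had log2 fold changes of 0.30 and 0.13 (FDR = 0.483 and 0.804). Col6a5 (ENSMUSG00000091345.7), an alternative chain with restricted expression, had 3.12, 1.80 and 4.15 CPM in the woodrats and 25.1, 18.7 and 28.9 CPM in the lab rats. It was 7.93-fold lower in woodrats (log2 fold change -2.99, SE 0.38, FDR = 0.00114) and was called in each fit that left out 1 animal.

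The small leucine-rich proteoglycans coat collagen fibrils and limit their growth. Dcn (ENSMUSG00000019929.14), which encodes decorin, had 143, 285 and 190.1 CPM in the woodrats and 537, 526 and 578 CPM in the lab rats. The lab rats were close together and all above the woodrats (log2 fold change -1.41, SE 0.31, FDR = 0.00892). Lum, which encodes lumican, had 32.8, 17.1 and 83.2 CPM in the woodrats and 124, 121 and 128 CPM in the lab rats, again with every lab rat above every woodrat, but the woodrats were widely spread and the gene did not pass (log2 fold change -1.48, SE 0.50, FDR = 0.0436). Bgn, which encodes biglycan, had 115, 101.2 and 102 CPM in the woodrats and 116, 152 and 90.5 CPM in the lab rats with overlap (log2 fold change -0.17, SE 0.26, FDR = 0.621). The FDR of Dcn was above 0.01 in each fit that left out 1 animal, where its log2 fold change ran from -1.76 to -1.20, and in DESeq2 Dcn and Lum both passed (FDR = 9.99e-05 and 0.00868). Markers of fibroblasts, the cells that make most decorin and type I collagen, were mixed: 2 of 10 were higher in woodrats (Vim and Thy1), none was lower, and 8 did not pass. This share of 20.0% equals the background. Among the 8, all woodrats lay above for Pdgfrb and Clec3b (log2 fold changes 1.37 and 1.22). All lab rats lay above for Fap and Cd34 (-1.70 and -1.11). Pdgfra (-0.38), Dpt (-0.02), Pi16 (0.73) and Mfap5 (-0.21) overlapped. Vim, which many cells besides fibroblasts express, made up most of the summed level of the 10 markers, which ran from 1563 to 3448 CPM in woodrats and from 482 to 578 CPM in lab rats.

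**Figure D3:**
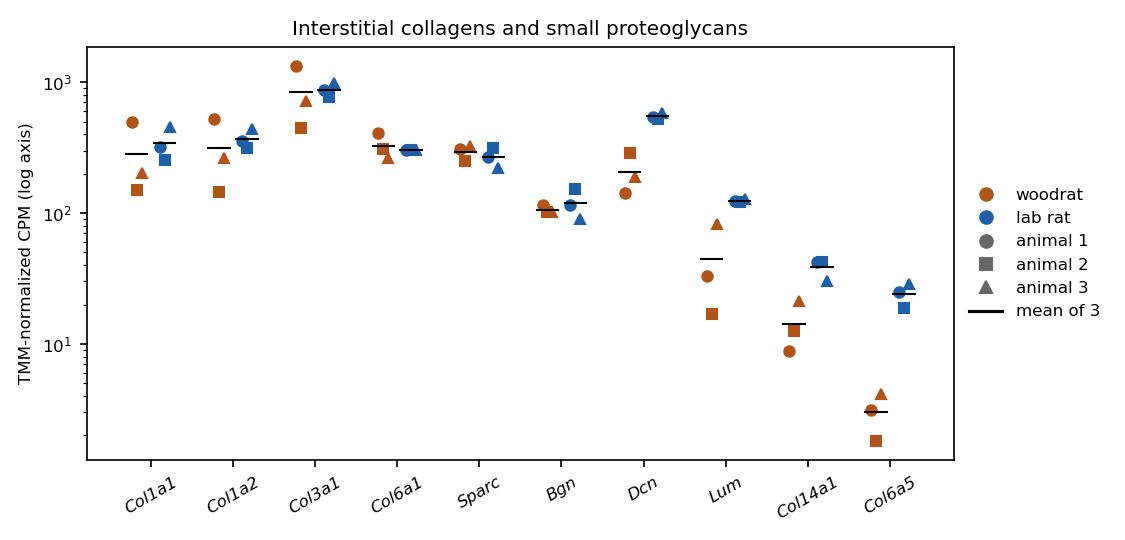
TMM-normalized CPM on a log axis for each animal (symbols mark the animals, bars the mean of 3) are shown for interstitial collagens, Sparc and the small proteoglycans. The woodrats and lab rats overlap from Col1a1 to Bgn, while all lab rats lie above all woodrats for Dcn, Lum, Col14a1 and Col6a5.

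Of the 14 tested network, beaded and fibril-associated collagens, 3 were higher and 3 lower in woodrats and 8 did not pass. The share called was 42.9% both for the network and beaded chains and for the fibril-associated group, against the background of 20.0%. Col8a1 (ENSMUSG00000068196.4), a chain of the hexagonal network collagen of vessel walls and other specialised matrices, had 66.4, 43.6 and 27.4 CPM in the woodrats and 1.74, 4.47 and 1.73 CPM in the lab rats. It was 17.2-fold higher in woodrats (log2 fold change 4.11, SE 0.51, FDR = 0.000991) and was called in every fit that left out 1 animal. Its partner chain Col8a2 had 58.2, 48.2 and 39.3 CPM in the woodrats and 15.9, 23.5 and 12.3 CPM in the lab rats (log2 fold change 1.49, SE 0.31, FDR = 0.00657). Col12a1, a collagen on the surface of type I fibrils in tissues under tension, had 268, 128 and 96.3 CPM in the woodrats and 47.5, 51.3 and 25.2 CPM in the lab rats (log2 fold change 1.98, SE 0.44, FDR = 0.00879). Col23a1, a membrane-spanning collagen that is not among these 14, had 18.9, 17.2 and 9.002 CPM in the woodrats and 3.85, 4.47 and 2.70 CPM in the lab rats (log2 fold change 2.02, SE 0.40, FDR = 0.00534). In these 4 genes every woodrat exceeded every lab rat. Col8a2, Col12a1 and Col23a1 were each called in 1 of the 6 fits without single animals.

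Lower in woodrats were Col18a1 and Col20a1. Col18a1, the basement membrane proteoglycan from which endostatin is cut, had 14.5, 13.9 and 28.8 CPM in the woodrats and 71.7, 63.8 and 52.6 CPM in the lab rats (log2 fold change -1.71, SE 0.33, FDR = 0.00529), called in 1 of the fits without single animals. It thus ran opposite to Col4a1 and Hspg2, which also encode basement membrane components, and in the same direction as Nid2. Col20a1 had 1, 0 and 2 reads in the woodrats and 18, 12 and 13 reads in the lab rats. The 3 woodrat reads in total gave a lab rat level 15.4 times that of woodrats, with a 95% counting interval from 4.94 to 77.7 that does not include the spread between animals. The fit gave a log2 fold change of -3.79 (FDR = 0.00389), which was -2.52 with a prior count of 2. Col20a1 reached 1 CPM in lab rats only, so it was tested through its level there. Col14a1, a fibril-associated collagen often found with decorin, had 8.79, 12.5 and 21.4 CPM in the woodrats and 42.6, 42.3 and 30.4 CPM in the lab rats, every lab rat above every woodrat, but did not pass (log2 fold change -1.42, SE 0.36, FDR = 0.0149). Col15a1, Col16a1 and Col13a1 overlapped between the species, with log2 fold changes of -0.02, 0.32 and -0.07 (FDR = 0.976, 0.428 and 0.932). Col19a1 and Col28a1 had 3.67 and 1.17 (FDR = 0.0127 and 0.0522), and for Col19a1 woodrat 2 held 95 of the 135 woodrat reads.

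The elastic fibre genes all had positive log2 fold changes, and 1 of the 5 passed, which equals the background of 20.0%. Fbn1, which encodes fibrillin 1, the scaffold of elastic fibres, had 85.9, 63.2 and 44.2 CPM in the woodrats and 26.9, 24.8 and 17.7 CPM in the lab rats (log2 fold change 1.47, SE 0.31, FDR = 0.00715), called in 1 of the 6 fits without single animals. Eln, which encodes elastin, had 184, 148 and 149 CPM in the woodrats and 71.2, 77.7 and 125 CPM in the lab rats. Each woodrat exceeded each lab rat, but by less than the threshold required (log2 fold change 0.81, SE 0.28, FDR = 0.0478). Lox, which encodes the lysyl oxidase that cross-links collagen and elastin, had 13.7, 8.47 and 5.33 CPM in the woodrats and 3.599, 6.12 and 8.28 CPM in the lab rats with overlap (log2 fold change 0.61, SE 0.46, FDR = 0.315). Its relatives Loxl1 and Loxl2 had log2 fold changes of 0.83 and 1.67 (FDR = 0.184 and 0.0440).

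The members that anchor squamous epithelium overlapped between the species and were widely spread among the woodrats, apart from Col7a1. The integrin of hemidesmosomes is formed by Itga6 and Itgb4, its ligand is the laminin that holds Lama3 and Lamb3, and Col17a1 spans the basal membrane beside it. Col17a1 (ENSMUSG00000025064.13) had 32.8, 166 and 339 CPM in the woodrats and 240.1, 228 and 134 CPM in the lab rats (log2 fold change -0.16, SE 0.66, FDR = 0.865). Itga6 had 2.34, 10.5 and 45.1 CPM in the woodrats and 28.5, 24.0 and 5.59 CPM in the lab rats (log2 fold change 0.01, SE 0.90, FDR = 0.997). In both genes woodrat 1 was the lowest and woodrat 3 the highest of all 6 animals, and lab rat 3 was the lowest lab rat. Lama3 had 14.3, 36.4 and 52.7 CPM in the woodrats and 23.0, 25.1 and 23.1 CPM in the lab rats (log2 fold change 0.54, SE 0.42, FDR = 0.330). Lamb3 had 11.9, 33.0 and 51.5 CPM in the woodrats and 32.9, 24.1 and 37.6 CPM in the lab rats (log2 fold change 0.04, SE 0.47, FDR = 0.957). Lama3 and Lamb3 held the same order among woodrats, with woodrat 1 lowest and woodrat 3 highest, and in lab rats Lama3 stayed within a narrow range. Itgb4 had 91.4, 169 and 152 CPM in the woodrats and 103, 78.7 and 118 CPM in the lab rats (log2 fold change 0.46, SE 0.30, FDR = 0.246). None of these 5 genes passed the threshold. Without woodrat 1 the log2 fold change of Col17a1 was 0.33, and without woodrat 3 that of Itga6 was -1.56.

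Anchoring fibrils, which hold the basement membrane to the stroma below, are built of type VII collagen. Col7a1 (ENSMUSG00000025650.11) had 10.9, 15.7 and 19.0 CPM in the woodrats and 63.9, 28.0 and 76.7 CPM in the lab rats and was lower in every woodrat (log2 fold change -1.88, SE 0.40, FDR = 0.00764), called in 2 of the 6 fits without single animals. The markers of basal squamous cells were read in all animals, and woodrat 1 was the lowest woodrat for each of the 5. Krt5 had 249.6, 513 and 794 CPM in the woodrats and 686, 577 and 740.4 CPM in the lab rats, and Trp63 had 3.32, 11.4 and 100.6 CPM in the woodrats and 87.5, 80.1 and 35.8 CPM in the lab rats. The log2 fold changes were negative for Krt5 (-0.36), Trp63 (-0.81) and Dsg3 (-1.52) and positive for Krt14 (0.67) and Krt15 (0.70). None of the 5 basal markers passed in edgeR, and none had an unadjusted p under 0.05. Their summed level, most of it from Krt15 in each animal, ran from 4667 to 10435 CPM in woodrats and from 4509.6 to 6958 CPM in lab rats. The part of basal cell content in the order of the woodrats for Col17a1, Itga6, Lama3 and Lamb3 was not tested.

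**Figure D4:**
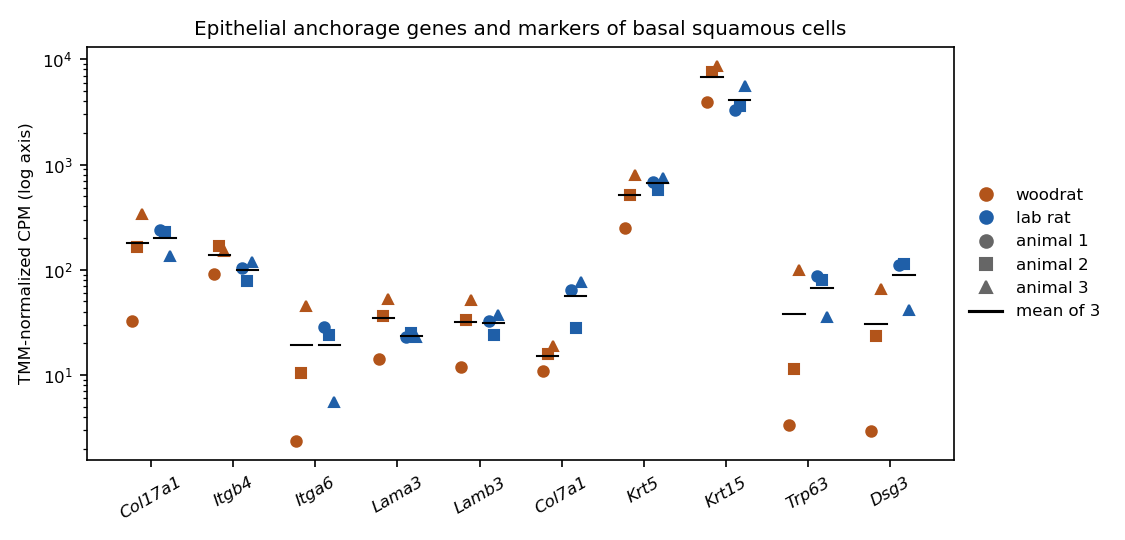
TMM-normalized CPM on a log axis for each animal (symbols mark the animals, bars the mean of 3) are shown for the genes of epithelial anchorage and for 4 markers of basal squamous cells. Woodrat 1 (circle) is the lowest woodrat in each of the 10 genes, and Col7a1 is the only one of them in which all lab rats lie above all woodrats.

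Ratios between genes within an animal do not depend on the scaling between libraries. The ratio of Col1a1 to Col1a2 reads, partners in a fixed trimer, was 0.950, 1.03 and 0.773 in the woodrats and 0.903, 0.811 and 1.04 in the lab rats, and overlapped. That of Col4a1 to Col4a2, also partners, was 1.86, 1.90 and 2.07 in the woodrats and 1.28, 1.09 and 1.38 in the lab rats, higher in each woodrat, with a difference in the mean log2 ratio of 0.64. Whether unequal alignment of woodrat and rat reads to the mouse transcripts has a part in such a difference was not tested. The Nid1 to Nid2 ratio was 30.9, 26.2 and 27.6 in the woodrats and 2.34, 2.89 and 0.758 in the lab rats, a difference of 4.03 in log2. It was higher in every woodrat. Fn1 per Col1a1 was 4.92, 17.2 and 4.14 in the woodrats and 0.278, 0.494 and 0.221 in the lab rats, and Col4a1 per Col1a1 was 2.13, 3.21 and 2.92 in the woodrats and 0.386, 0.568 and 0.275 in the lab rats. The differences in mean log2 ratio were 4.50 and 2.79, with no overlap. The Itga5 to Itgb1 ratio was 0.425, 0.238 and 0.448 in the woodrats and 0.161, 0.167 and 0.177 in the lab rats, also without overlap. Decorin per biglycan read was lower in each woodrat, at 1.24, 2.82 and 1.86 in the woodrats and 4.63, 3.45 and 6.39 in the lab rats, whereas decorin per Col1a1 read overlapped, at 0.287, 1.90 and 0.933 in the woodrats and 1.69, 2.06 and 1.27 in the lab rats.

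The reads of these genes were also set against those of smooth muscle markers. Myh11 encodes the myosin heavy chain of smooth muscle. Col4a1 reads per Myh11 read were 0.0318, 0.0261 and 0.0493 in the woodrats and 0.0434, 0.0325 and 0.0276 in the lab rats. The species overlapped, and the mean log2 ratios differed by 0.02. Fn1 reads per Myh11 read were 0.0735, 0.140 and 0.0699 in the woodrats and 0.0313, 0.0282 and 0.0222 in the lab rats, so each woodrat exceeded each lab rat, with a difference of 1.73. Itga5 per Myh11 was 0.0232, 0.0150 and 0.0271 in the woodrats and 0.0158, 0.0152 and 0.0103 in the lab rats, with overlap and a difference of 0.65. These values depended on the marker. Over the 10 markers with reads in every animal, a comparison added after the data were seen, the difference for Col4a1 ran from -0.78 with Mylk to 1.75 with Smtn (median 0.72), and every woodrat exceeded every lab rat with 6 of them. For Fn1 it ran from 0.93 to 3.45 (median 2.43), without overlap with 9 of the 10, and for Itga5 from -0.15 to 2.37 (median 1.34), without overlap with 6. The ratios are given as descriptions, since with 3 animals against 3 no exact permutation test can reach a two-sided p under 0.1.

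**Figure D5:**
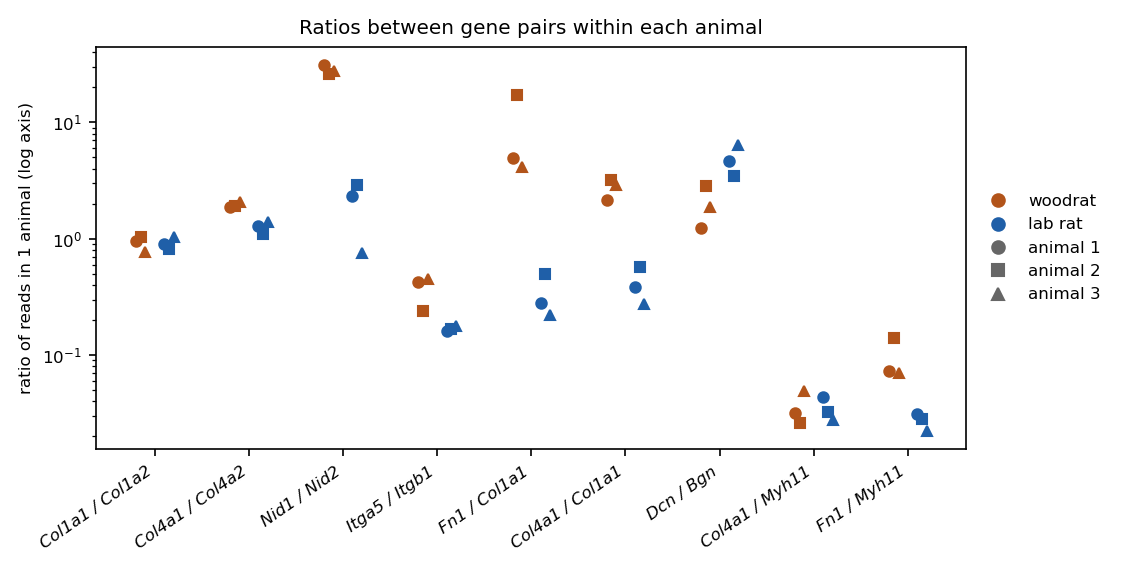
Ratios of reads of 9 gene pairs within each animal are plotted on a log axis (symbols mark the animals). Woodrats and lab rats overlap for Col1a1 over Col1a2 and for Col4a1 over Myh11, all lab rats lie above all woodrats for Dcn over Bgn, and all woodrats lie above all lab rats for the other 6.

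Woodrat 1 had the highest level of the woodrats in 46 of the 76 tested members (60.5%), against 37.6% of all tested genes. Among the 20 members higher in woodrats, woodrat 1 was the highest woodrat in 15 (75.0%, against 37.6% of all tested genes). Woodrat 3 was the lowest woodrat in 14 of them (70.0%, against 37.9%), and lab rat 2 the highest lab rat in 15 (75.0%, against 29.6%). Among the 10 lower members, lab rat 3 was the highest lab rat in 8 (80.0%, against 40.5%). Lab rat 2 was the lowest lab rat in 7 of these 10 (70.0%, against 25.9%). With woodrat 1 left out, in a fit with fewer residual degrees of freedom, 15 members were higher and 5 lower, as against 20 and 10 with it.

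The genes that make and fold collagen went both ways. Of the 24 enzymes, chaperones and secretion factors tested, 4 were higher in woodrats, 1 was lower and 19 did not pass, a share of 20.8% against the background of 20.0%. P3h2, a prolyl 3-hydroxylase that acts on type IV collagen, had 146, 91.6 and 89.3 CPM in the woodrats and 32.3, 44.3 and 33.9 CPM in the lab rats (log2 fold change 1.57, SE 0.28, FDR = 0.00391). Sec23a, a coat protein of the vesicles that export procollagen, had a log2 fold change of 1.63 (FDR = 0.00393), and the lysyl hydroxylases Plod2 and Plod3 had 1.47 and 1.18 (FDR = 0.00806 and 0.00882). Pcolce, which enhances the trimming of fibrillar procollagens, had 42.4, 20.1 and 19.7 CPM in the woodrats and 65.2, 76.7 and 114 CPM in the lab rats (log2 fold change -1.64, SE 0.37, FDR = 0.00974). Serpinh1, the collagen chaperone, had -0.62 (FDR = 0.194).

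Of the 15 focal adhesion adaptors, which connect integrins to actin, 4 were higher in woodrats, none was lower and 11 did not pass, a share of 26.7% against the background of 20.0%, with a median log2 fold change of 1.39. In 11 of the 15 every woodrat lay above every lab rat, against 28.8% of all tested genes. Tns1, which encodes tensin 1, had 1544, 2027 and 891 CPM in the woodrats and 159.8, 252 and 49.3 CPM in the lab rats (log2 fold change 3.27, SE 0.61, FDR = 0.00445). Vcl, which encodes vinculin, had 619, 364 and 297 CPM in the woodrats and 121, 125 and 58.6 CPM in the lab rats (log2 fold change 2.07, SE 0.40, FDR = 0.00526). Woodrat 1 was the highest woodrat for 14 of the 15, and smooth muscle also expresses most of these genes. The part of smooth muscle content in their levels was not tested. Of the 7 partners of hemidesmosomes and basal anchorage, Plec and Dst were higher, with log2 fold changes of 1.73 and 1.38 (FDR = 0.00289 and 0.00437). Both encode linkers of the plakin family that muscle and other cells make as well. Cd151, Frem1, Frem2, Fras1 and Fermt1 did not pass, so 28.6% of the 7 were called, against the background of 20.0%.

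The 6 members that were not tested had few reads. Itga2, the collagen receptor chain of epithelium and platelets, had 0, 3 and 24 reads in the woodrats and 4, 0 and 0 reads in the lab rats, and Itgb8 had 1, 13 and 2 reads in the woodrats and 0, 0 and 1 reads in the lab rats. Col6a6 had 2, 3 and 23 reads in the woodrats and 8, 4 and 1 reads in the lab rats. Most woodrat reads of Itga2 and Col6a6 came from woodrat 3, and most of those of Itgb8 from woodrat 2. Col9a2, Col9a3 and Col22a1 had at most 7 reads in any animal, and Col9a3 had 1 read in the woodrats together and 14 in the lab rats. In a fit without the filter none of the 6 passed, with log2 fold changes that included -3.49, FDR = 0.0267 for Col9a3 and 3.45, FDR = 0.0804 for Itgb8. The reads of Col9a3 gave a lab rat level 15.1 times that of woodrats, with a 95% counting interval from 2.29 to 637 that leaves out the spread between animals.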

How the data were processed

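Poly(A) RNA of foregut tissue was sequenced from 3 woodrats and 3 lab rats. The authors trimmed and merged the read pairs (Trimmomatic, FLASH), aligned them with cross_match to the mouse coding transcripts of GENCODE release M7 on the correct strand, and deposited raw counts of uniquely assigned reads per gene. Tool versions are not given in the sources used here. Reads of both species had to match mouse, so a gene in which one species is more diverged can lose reads, and this cannot be told apart from abundance. The study also examined divergence and mapping within each species, which was not repeated here. The species and number of each animal come from the sample titles.

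The filter kept 12603 of 15481 genes, those that reached 1 CPM in 3 or more animals. TMM factors and the quasi-likelihood F-test (the method used before version 4) were computed with edgeR 4.0.16 in R 4.3.3, with no term but species, a prior count of 0.125, Benjamini-Hochberg adjustment over all tested genes and an FDR threshold of 0.01. The test, its term and the threshold follow the study's methods, whereas the filter is lower than the 5 CPM used there, which was run as an alternative. The SE is the size of the log2 fold change divided by the square root of F. On simulated counts over 12603 genes, the fit for this comparison recovered 168 of 200 changed genes with 2 false calls. The simulation used log2 changes of -3, -2, 2 and 3 and gave every gene the same dispersion. Its recovery and false calls therefore do not carry over to the real genes, whose spread differs. No replicate pair had counts that agreed within sampling noise (chi-square per degree of freedom from 10.1 to 121). Intervals cover counting error only. The replicates are separate animals.

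Members, gene lists, ratios (18 computed) and tests were chosen with earlier results of these data known. Per-animal values were planned for each member past the threshold and for a fixed list of main chains. Alternatives were other filters, scalings, edgeR settings, DESeq2 1.42.0, an FDR of 0.05, a prior count of 2, the replicate number as a block, and each animal left out. Ratios to other smooth muscle markers and the values of the unfiltered fit for the untested members were added after seeing the data. The values of 1 laminin chain are not reported here, though it is included in the counts. No genome or sequence was used here, so no positions are given. Paralogous collagen chains could exchange reads where their sequences are alike.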

Additional observations from a re-analysis of the deposited data

How the results depend on the processing

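With total counts as the only scaling, 15 members (9 higher, 6 lower) and 1813 of all genes were called, against 30 members and 2516 genes in the main fit. The mean summed CPM of the small proteoglycans in lab rats was then 804.7 against 791 with TMM. The numbers of the labels did not pair the animals, since same-numbered animals deviated from their species means with correlations of -0.289, -0.088 and -0.279. With the replicate block, 6 members (4 higher, 2 lower) and 716 of all genes were called. Over the fits that left out 1 animal, between 6 and 34 members were called (4 to 23 higher, 1 to 11 lower) and between 898 and 2626 of all genes. DESeq2 called 36 members (22 higher, 14 lower) and 3916 of all genes, and an FDR below 0.05 gave 43 members and 5026 of all genes. The other filters, DESeq2 size factors, upper-quartile factors, the edgeR 4 method and robust estimation gave between 24 and 30 members. The median log2 fold change of the members stayed between 0.38 and 0.52 under every alternative run. No member called in the main test changed sign. Signs near 0 did change in members that were not called. The log2 fold change of Itga6 was -0.0326 with DESeq2 size factors, -0.0375 with total counts, -0.0746 with upper-quartile factors, -0.71 with the replicate block and -0.0388 in DESeq2, and from -1.56 to 0.52 with 1 animal left out. That of Lamb3 was -0.00805 with DESeq2 size factors, -0.0124 with upper-quartile factors, -0.15 with the replicate block and -0.0115 in DESeq2, and from -0.48 to 0.42 with 1 animal left out. With 1 animal left out, Col17a1 ran from -1.01 to 0.33, Col3a1 from -0.59 to 0.19, Col1a2 from -0.85 to 0.0610, Col6a1 from -0.0914 to 0.24 and Bgn from -0.34 to 0.0407. The cause of these shifts was not tested. With 2 animals left in a species, the fits have fewer residual degrees of freedom.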

Other observations

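The integrin alpha chains outside the members were measured from a separate list of 13, of which 12 were in the files and 9 were tested. Itga1, which pairs with Itgb1 as a receptor for collagen and laminin and is typical of smooth muscle, had 203, 235 and 124 CPM in the woodrats and 3.35, 7.61 and 2.70 CPM in the lab rats (log2 fold change 5.36, SE 0.48, FDR = 0.000323). Itga9, a chain that binds tenascin C and other ligands with Itgb1, had 73.4, 55.8 and 41.3 CPM in the woodrats and 7.69, 11.7 and 8.09 CPM in the lab rats (log2 fold change 2.63, SE 0.32, FDR = 0.000928). In both genes every woodrat lay above every lab rat, and the log2 fold change of Itga1 was above that of every tested member. The leukocyte chains Itgal and Itgam were lower in woodrats, with log2 fold changes of -3.61 and -3.65 (FDR = 0.00232 and 0.00513). Itga7, the muscle laminin receptor chain, did not pass, at 0.86 (FDR = 0.174).

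Of the 19 tested genes for other small proteoglycans and elastic fibre proteins, 5 were higher in woodrats, 1 was lower and 13 did not pass. The share called was 31.6%, against the background of 20.0%. Ogn, which encodes osteoglycin, had 189, 210.3 and 111 CPM in the woodrats and 34.4, 44.7 and 29.7 CPM in the lab rats (log2 fold change 2.23, SE 0.32, FDR = 0.00158), and Aspn, which encodes asporin, had 179, 70.0 and 71.1 CPM in the woodrats and 22.1, 34.2 and 33.5 CPM in the lab rats (log2 fold change 1.83, SE 0.41, FDR = 0.00941). Both relatives of decorin were higher in each woodrat, while Fmod, which encodes the relative fibromodulin, was lower in each woodrat without passing (log2 fold change -1.44, SE 0.42, FDR = 0.0261). Mfap4, which binds elastic fibres, had 40.2, 30.5 and 31.3 CPM in the woodrats and 91.2, 90.6 and 150.04 CPM in the lab rats (log2 fold change -1.70, SE 0.28, FDR = 0.00292). Fbln5, Ltbp1 and Ltbp3 were higher, with log2 fold changes of 1.48, 1.64 and 1.14 (FDR = 0.00332, 0.00740 and 0.00684). Peripheral glia markers summed from 8.77 to 16.8 CPM in woodrats and from 5.01 to 9.18 CPM in lab rats, and mesothelial markers from 0.139 to 2.84 CPM in woodrats and from 1.32 to 7.32 CPM in lab rats. Suprabasal squamous markers summed from 18298 to 59815 CPM in woodrats and from 69626 to 84618 CPM in lab rats. Krt1 and Krt10 made up most of the lab rat sums and did not pass (log2 fold changes -2.50 and -2.28, FDR = 0.0205 and 0.0607). Of the 6 tested, 3 had positive and 3 negative log2 fold changes. Krt4 was higher (3.34) and Ivl lower (-4.96) in woodrats at the threshold, a share of 33.3% against the background of 20.0%. Krt13 and Dsc2 overlapped (0.55 and 0.42).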
